A study of Mus musculus with 11 samples.

Results

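The 28 genes described here make or control cholesterol, and were chosen by symbol from a fixed list of cholesterol synthesis and sterol control genes. All 28 were found among the 19207 genes of the deposited count table, and all 28 passed the filter on low counts that left 16866 genes for testing. They fall by role into 8 genes that lead from acetyl-CoA to the isoprenoids, 3 from squalene to lanosterol, 8 from lanosterol to cholesterol, 4 of the sterol sensing machinery, and 5 of sterol traffic, lipoprotein uptake and neighbouring steps.

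RNA came from frozen livers of C57BL/6 mice, either wild type or Hmgb2-/- (the knockout), given oil or carbon tetrachloride (CCl4), a liver poison. Hmgb2 encodes a chromatin protein. The wild-type groups were WT_Oil (libraries 1, 2 and 3) and WT_CCL4 (4, 5 and 6). The Hmgb2-/- groups were KO_Oil (11 and 12) and KO_CCL4 (24, 25 and 15). In the sample titles the numbers 24 and 25 follow the letter E and all others the letter S, and what the letters stand for was not given. Age, sex, CCl4 dose and schedule, feeding state and time of day at collection are not given in the sources used here. Nor do the labels say how the allele was made, or that each library was a mouse of its own, so a p-value here speaks of the variation among these libraries, part of which may be technical.

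Library totals ran from 7306082 to 14116886 counts. Hmgb2 itself had between 1.93 and 7.42 CPM (counts scaled to a common library size) in the 6 wild-type libraries and at most 0.951 CPM in the 5 knockout libraries, so no library went against its genotype label. The hepatocyte marker Ttr stood between 3823 and 5381 CPM in every library, but the 8 hepatocyte markers together varied more. They summed to 57243 to 65530 CPM in WT_Oil and to 39806, 54155 and 41148 CPM in WT_CCL4. The sums were 43705 and 48640.1 CPM in KO_Oil and 43702, 42468.5 and 56811 CPM in KO_CCL4 24, 25 and 15. In wild type 7 of the 8 were lower after CCl4. Of these, 1 had an adjusted p below 0.05 (edgeR), as had 254 of all 16866 genes in that direction. Of 5 adrenal cortex markers only Star was tested, at 2.72 to 5.80 CPM, and the defining adrenal and adipose markers Cyp11a1, Cyp11b1, Adipoq, Plin1 and Lep were on the authors' list of genes under 10 counts.

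Cells build cholesterol from acetyl-CoA through mevalonate, isoprenoids, squalene and lanosterol, and the liver is a main site of this synthesis. When the membrane of the endoplasmic reticulum is poor in sterol, the escort protein Scap carries the transcription factor SREBP-2 (encoded by Srebf2) to the Golgi, where it is cut and set free to switch on the genes of the pathway. When sterol is plentiful, the anchor proteins Insig1 and Insig2 hold Scap back. Insig1 is itself a target of SREBP, while a liver transcript of Insig2 is known to be lowered by insulin.

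SREBP proteins bind sterol regulatory elements and work together with NF-Y, a factor that binds the letters CCAAT, so the promoters of the genes that carry the results below are shown first. Of the 28 genes 23 had at least 1 promoter window in the RefSeq table (build GRCm38.p6, the build of mm10). Fdps, Fdft1, Sqle, Lpl and Stard4 are named only. In the 250 bases before the start, searched on both strands, CCAAT was found for 21 of 23 member genes (91.3%) and for 37.5% of all 27025 genes in the table. Counted by window, it was in 21 of 30 member windows (70.0%) and in 33.8% of all 32851 windows. The classical sterol element, searched as TCACNCCAC, was found for Hmgcs1 alone among the members, 1 of 23 genes (4.35%), against 1.22% of all genes. The E-box CACGTG was found for 6 of 23 member genes (26.1%) and for 6.86% of all genes. A match describes the letters of a window and is not a mapped binding site. The windows run 5′ to 3′ on the gene's strand and end at the base before the RefSeq start. Capitals mark CCAAT or its reverse complement ATTGG and, in Hmgcs1, the sterol element, which ends 128 bases before the start. Hmgcs1 is shown because it alone holds both, Idi1, Msmo1 and Insig1 because they were higher in the knockout after oil, and Insig2 because it was lower there while its outermost window also holds CCAAT.
Hmgcs1, chr13:119690101-119690350, plus strand: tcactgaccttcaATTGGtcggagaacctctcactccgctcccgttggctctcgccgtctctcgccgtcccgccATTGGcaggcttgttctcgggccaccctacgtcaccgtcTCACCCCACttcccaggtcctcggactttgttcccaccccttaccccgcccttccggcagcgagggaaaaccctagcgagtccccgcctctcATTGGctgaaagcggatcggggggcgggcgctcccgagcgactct
Idi1, chr13:8885356-8885605, plus strand: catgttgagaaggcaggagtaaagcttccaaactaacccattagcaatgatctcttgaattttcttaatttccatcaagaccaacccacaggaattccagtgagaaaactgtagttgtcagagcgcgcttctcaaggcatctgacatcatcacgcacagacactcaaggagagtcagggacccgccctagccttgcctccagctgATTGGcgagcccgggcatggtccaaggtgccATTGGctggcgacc
Msmo1, chr8:64733579-64733828, minus strand: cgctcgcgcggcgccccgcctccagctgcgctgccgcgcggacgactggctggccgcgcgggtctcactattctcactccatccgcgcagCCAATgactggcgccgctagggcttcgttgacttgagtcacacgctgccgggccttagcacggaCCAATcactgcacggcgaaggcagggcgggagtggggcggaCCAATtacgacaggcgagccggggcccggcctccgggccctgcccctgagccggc
Insig1, chr5:28071162-28071411, plus strand: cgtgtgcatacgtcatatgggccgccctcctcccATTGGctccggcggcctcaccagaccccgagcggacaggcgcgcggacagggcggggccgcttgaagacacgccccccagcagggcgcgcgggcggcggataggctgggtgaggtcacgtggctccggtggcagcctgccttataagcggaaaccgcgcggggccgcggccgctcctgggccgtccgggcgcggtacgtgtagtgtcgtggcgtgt
Insig2, chr1:121332590-121332839, minus strand: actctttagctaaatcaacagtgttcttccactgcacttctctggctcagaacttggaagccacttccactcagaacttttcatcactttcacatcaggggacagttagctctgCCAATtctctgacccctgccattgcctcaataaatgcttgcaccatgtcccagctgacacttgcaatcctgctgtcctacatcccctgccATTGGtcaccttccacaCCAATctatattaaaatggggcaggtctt
The other 2 windows of Insig2, which lie inside the gene's span, held none of the 3 motifs.

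Per unit length, Insig2 was the most abundant of the 28 transcripts in wild-type liver after oil, at 133 ± 27.6 FPKM (reads scaled by gene length and library total, as deposited by the authors; mean ± SD, n = 3). Ebp, the sterol isomerase, had 67.0 ± 10.2 FPKM and Sc5d, the sterol desaturase, 42.7 ± 11.5 FPKM. At the other end stood Idi1, the isopentenyl diphosphate isomerase, at 0.980 ± 0.518 FPKM and Mvd, the mevalonate diphosphate decarboxylase, at 1.08 ± 0.376 FPKM. The lowest count of any member in any library was 13, in Mvd.

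**Figure D1:**
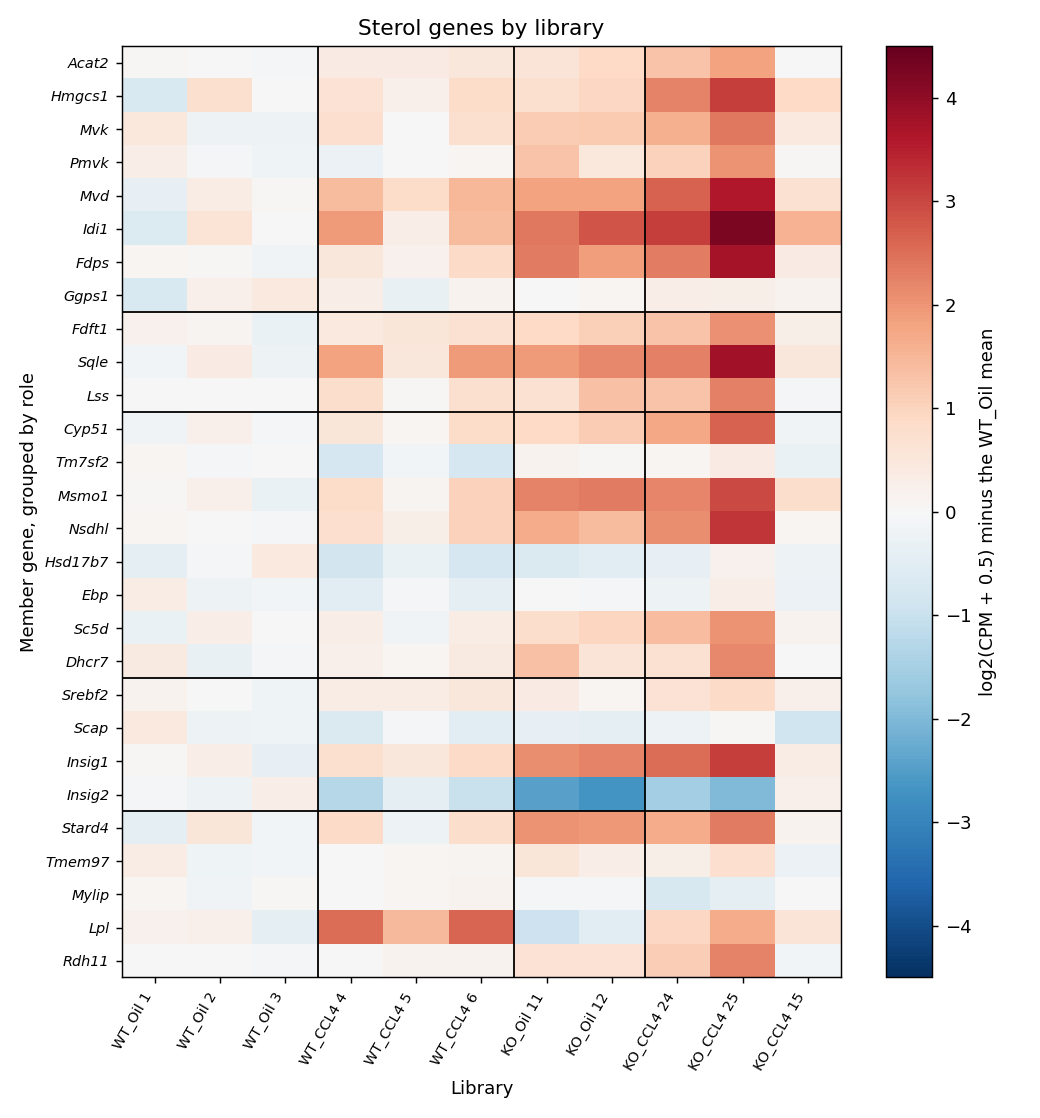
Each row is 1 of the 28 sterol genes, ordered by role, and each column 1 of the 11 libraries. The colour is log2(CPM + 0.5) minus the mean of the 3 WT_Oil libraries. KO_Oil 11 and 12 and KO_CCL4 24 and 25 are red for most synthesis genes and blue for Insig2, while KO_CCL4 15 is close to the wild-type oil libraries.

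The comparison of knockout with wild-type liver after oil asks what loss of Hmgb2 goes with in the uninjured organ. Of the 28 sterol genes 4 were higher and 1 was lower in the knockout. Idi1, Msmo1, Insig1 and Stard4 rose between 3.85-fold and 6.24-fold, and Insig2 fell 6.00-fold. Calls are at an adjusted p below 0.05 in edgeR's quasi-likelihood test with Benjamini-Hochberg adjustment over all tested genes, by which 2.19% of all genes were higher and 1.92% lower. The median log2 fold change of the 28 members was 0.91, against 0.01 over all tested genes. Both KO_Oil libraries lay above all 3 WT_Oil libraries for 18 of the 28 (19.7% of all genes) and below all 3 for 4 (19.2% of all genes).

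Msmo1 (ENSMUSG00000031604, chr8:64718138-64733792 on mm10), the methylsterol monooxygenase that starts the removal of methyl groups on the way from lanosterol to cholesterol, gave the smallest adjusted p of the 28. It had 38.3, 42.8 and 29.8 CPM in WT_Oil 1, 2 and 3 and 174 and 185 CPM in KO_Oil 11 and 12. The groups did not overlap, and the log2 fold change was 2.28 with a standard error (SE) of 0.45 and an adjusted p of 0.019 (edgeR). Idi1 (ENSMUSG00000058258, chr13:8885500-8892451) had 2.04, 5.49 and 3.31 CPM in wild type and 19.7 and 26.8 CPM in the knockout, a log2 fold change of 2.64 (SE 0.66) with an adjusted p of 0.045 (edgeR). Stard4 (ENSMUSG00000024378, chr18:33199354-33213862), a carrier that moves cholesterol between membranes, had 16.1, 32.2 and 19.9 CPM in wild type and 90.7 and 85.2 CPM in the knockout. Its log2 fold change was 1.94 (SE 0.49, adjusted p = 0.047, edgeR), again without overlap.

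The Insig genes, which both hold Scap in the endoplasmic reticulum, moved in opposite directions. Insig1 (ENSMUSG00000045294, chr5:28071362-28078662) had 73.5, 87.3 and 54.7 CPM in WT_Oil and 301 and 335 CPM in KO_Oil, a log2 fold change of 2.15 (standard error 0.52, adjusted p = 0.039, edgeR). Insig2 (ENSMUSG00000003721, chr1:121304352-121332589) had 455, 421 and 606 CPM in WT_Oil and 89.0 and 75.6 CPM in KO_Oil. This was a log2 fold change of -2.59 (standard error 0.56, adjusted p = 0.027, edgeR), with every knockout library below every wild-type library. The ratio of Insig1 to Insig2 in FPKM was therefore 0.181, 0.233 and 0.102 in the WT_Oil libraries and 3.80 and 4.98 in the KO_Oil libraries. The more abundant of the pair was thus Insig2 in WT_Oil and Insig1 in KO_Oil. Insig2 overlaps the gene model Gm37174 on the other strand, and it is not known whether counting used strand. The overlapping model had at most 251 counts in a library, against up to 6216 for Insig2. In these bulk samples fewer cells of a type and less RNA per cell cannot be told apart.

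The transcripts of the factor and its escort were not called. Srebf2 (ENSMUSG00000022463, chr15:82147265-82205376) had 26.8, 24.8 and 21.3 CPM in WT_Oil and 31.7 and 26.0 CPM in KO_Oil, a log2 difference of 0.25 (SE 0.20) with overlapping groups. Scap (ENSMUSG00000032485, chr9:110333287-110384950) had 236, 150 and 151 CPM in WT_Oil and 135 and 128 CPM in KO_Oil, a log2 difference of -0.45 (SE 0.28).

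Among the remaining enzymes most values were higher in the knockout without passing the test. Hmgcs1 (ENSMUSG00000093930, chr13:119690461-119708086), the synthase that makes HMG-CoA, had 58.2, 156 and 92.3 CPM in WT_Oil and 157 and 181 CPM in KO_Oil, with a log2 difference of 0.73 (SE 0.50). WT_Oil 2 came within 2 CPM of the lower knockout library. Sqle (ENSMUSG00000022351, chr15:59315076-59331192), the squalene monooxygenase and a rate-limiting step of the later pathway, had 8.97, 12.6 and 8.18 CPM in WT_Oil and 38.2 and 45.7 CPM in KO_Oil. Its groups were far apart, at a log2 difference of 2.07 (SE 0.68), yet its adjusted p was 0.10 (edgeR).

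In the stretch from acetyl-CoA to isoprenoids, 7 of 8 members (Acat2, Hmgcs1, Mvk, Pmvk, Mvd, Idi1 and Fdps, which carry acetyl-CoA to farnesyl diphosphate) had both knockout libraries above all wild-type ones, with log2 differences from 0.73 to 2.64. Ggps1, which makes geranylgeranyl diphosphate for a side branch, stood at -0.03. Fdft1, Sqle and Lss, which make squalene, oxidise it and close the ring, had log2 differences of 0.98, 2.07 and 1.04. From lanosterol to cholesterol, Cyp51, Msmo1, Nsdhl, Sc5d and Dhcr7 ran from 0.87 to 2.28 without overlap. Ebp, Tm7sf2 and Hsd17b7, enzymes of the same stretch, stood at -0.07, 0.11 and -0.62. In the last group, Rdh11, a retinol dehydrogenase, and Tmem97, a sterol-binding membrane protein, stood at 0.66 and 0.40. Mylip, a ligase that marks lipoprotein receptors for decay, and Lpl, the lipoprotein lipase, stood at -0.10 and -0.74. None of these 4 was called. Fdps shares 7513 bases with the gene model Gm43738 on the same strand and Mvd lies opposite Gm20388 over 9823 bases, so their counts are uncertain. In all, 9 members overlap another gene. Fdft1 lies over 768 bases opposite a gene with up to 14048 counts, against up to 2659 for Fdft1. Ggps1, Lss, Cyp51, Scap and Insig2 also lie opposite another gene, and Tm7sf2 overlaps one on the same strand.

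In these calls all 11 libraries shared 1 estimate of the spread of each gene. With only the 5 oil libraries in the fit, 14 members were higher and Insig2 was lower, and 2.92% of all genes were higher. The 10 that joined the 4 were Acat2, Mvk, Mvd, Fdps, Fdft1, Sqle, Lss, Cyp51, Nsdhl and Rdh11. Sqle then had a log2 fold change of 2.08 (standard error 0.22, adjusted p = 0.0025, edgeR) and Fdps one of 2.14 (SE 0.19, adjusted p = 0.0015, edgeR). In the other direction, no member was called when WT_Oil 3, KO_Oil 11 or KO_Oil 12 was left out (0.777%, 0.102% and 0.861% of all genes in that order). There were 2 calls without WT_Oil 1, WT_Oil 2, WT_CCL4 6 or KO_CCL4 24 (2.84%, 2.16%, 2.49% and 3.50% of all genes) and 3 without WT_CCL4 4 (3.26%). There were 9 without KO_CCL4 25 (5.09%) and 13 without KO_CCL4 15 (6.84%). In the authors' deposited table, 7 members were higher (2.73% of all 19207 genes) and Insig2 was lower. The 7 were Mvd, Idi1, Fdps, Msmo1, Nsdhl, Insig1 and Stard4.

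**Figure D2:**
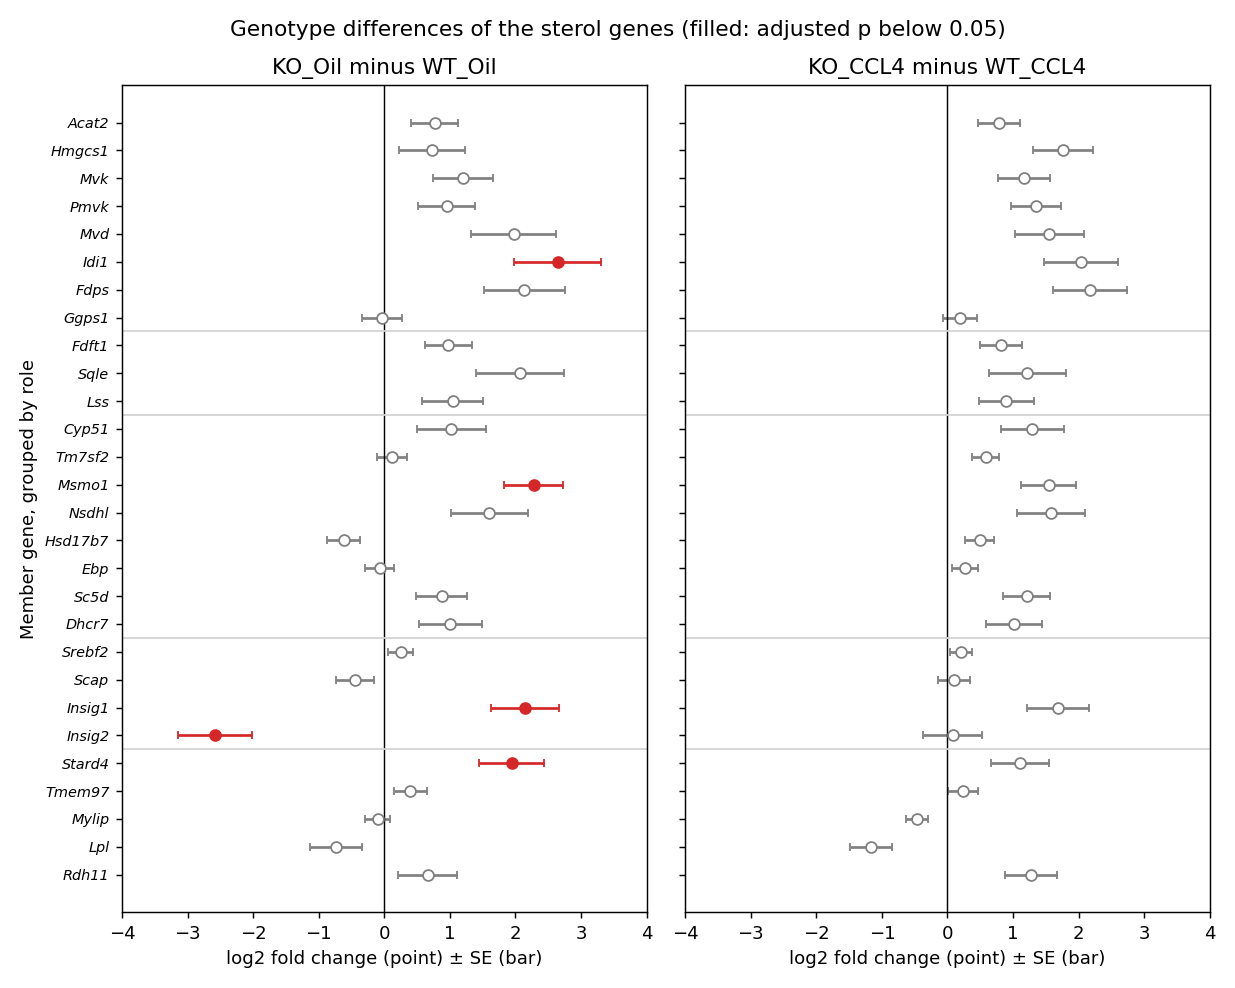
Points are log2 fold changes of the 28 sterol genes between knockout and wild-type liver, after oil on the left and after CCl4 on the right, and bars are ± 1 SE. Filled points have an adjusted p below 0.05, which 5 genes reached after oil and 0 after CCl4, although the median lay at 0.91 and 1.06.

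Other genes of lipid supply in the same livers were read from fixed lists. Of 20 further genes of sterol synthesis and control, 0 were called in any of the 5 contrasts, and their median log2 difference after oil was 0.23. At an unadjusted p below 0.05, 4 of the 20 were higher and 2 lower after oil, where 20.0% of all genes passed in either direction. Of 15 fatty acid synthesis genes, 2 were higher, Srebf1 (which encodes SREBP-1) by a log2 fold change of 2.61 and Thrsp (a lipogenic nuclear protein) by 3.54, with adjusted p of 0.023 and 0.024 (edgeR). Of 15 genes of sterol efflux and esterification, the partner transporters Abcg5 and Abcg8, which export sterol into bile, rose by log2 fold changes of 0.79 and 0.85, and the lysosomal lipase gene Lipa fell by 0.80, with adjusted p from 0.012 to 0.039 (edgeR). The medians of these lists were 0.15 and 0.00. These calls rested on few libraries. Leaving out WT_Oil 3 or KO_Oil 11 ended all 5 of them, and leaving out KO_Oil 12 ended all but that of Thrsp. Srebf1 and Thrsp were also lost without WT_Oil 1 or WT_Oil 2, Abcg8 without WT_Oil 2, and Lipa without WT_Oil 1, WT_Oil 2 or WT_CCL4 6 and with only the oil libraries.

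Other programmes moved alongside in the same libraries. Of 7 fasting and PPARA target genes, 5 were lower in KO_Oil than in WT_Oil, and the list summed to 13821 to 17509 CPM in WT_Oil but to 2576 and 3339 CPM in KO_Oil. Of 8 clock genes, 5 were higher and 2 lower, among them Dbp at 17.1 to 18.2 CPM in WT_Oil and 123 and 144 CPM in KO_Oil. Of 4 heat shock genes, 2 were lower. Of 7 macrophage markers 0 were called, with sums of 225 to 324 CPM in WT_Oil and 391 and 331 CPM in KO_Oil. Of 8 hepatocyte markers 0 were called, with sums of 57243 to 65530 CPM and of 43705 and 48640.1 CPM. The part of feeding state, hour of collection or cell makeup in the sterol gene differences was not tested.

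**Figure D3:**
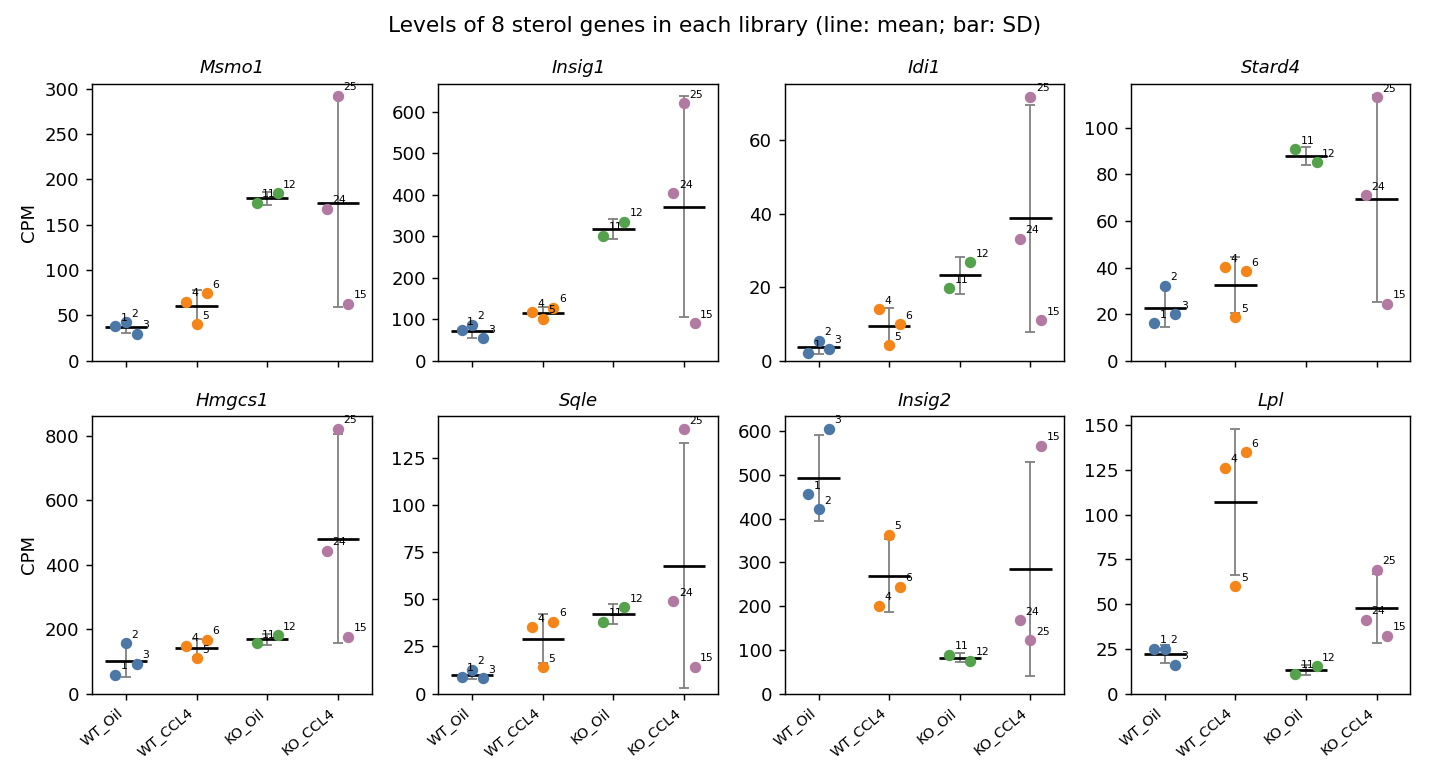
Points are the CPM of 8 sterol genes in each library, numbered by library, with the group mean as a line and the SD as a bar. In KO_CCL4, library 15 lies below libraries 24 and 25 for every gene shown but Insig2, where it lies above them.

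After CCl4 the 3 knockout libraries did not form 1 group for these genes. KO_CCL4 15 was the lowest of the 3 for 25 of the 28 members (40.1% of all genes), and KO_CCL4 25 was the highest for 25 of the 28 (34.1% of all genes). The median log2 difference of the members from the WT_Oil mean was 1.27 in KO_CCL4 24 and 2.10 in KO_CCL4 25, but 0.16 in KO_CCL4 15. In WT_CCL4 4, 5 and 6 it was 0.41, 0.09 and 0.59. KO_CCL4 24 and 25 both lay above all 3 WT_CCL4 libraries for 21 of the 28 (17.1% of all genes). KO_CCL4 15 lay within the range of the 6 wild-type libraries for 23 of the 28 (70.2% of all genes).

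The ratio of KO_CCL4 25 to KO_CCL4 15 was highest in Fdps, the farnesyl diphosphate synthase, at 10.4, with 138 CPM in KO_CCL4 24, 372 CPM in KO_CCL4 25 and 35.7 CPM in KO_CCL4 15. Sqle had 48.9, 140 and 14.2 CPM in the same order, against 35.2, 14.05 and 38.1 CPM in WT_CCL4 4, 5 and 6. Hmgcs1 had 444, 823 and 176 CPM, against 147, 110 and 167 CPM in WT_CCL4. After CCl4 it was the only member with all 3 knockout libraries above all 3 wild-type ones, by a narrow margin for library 15. Of all 16866 tested genes, 1560 lay so. Mylip, at 16.0, 19.6 and 26.1 CPM against 26.3, 28.6 and 29.9 CPM in WT_CCL4, was the only member below all 3. The same held for 1927 of all tested genes. Ggps1, at 11.6, 11.4 and 10.6 CPM, hardly differed between the 3 libraries.

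The comparison of genotypes after CCl4 asks whether the injured livers differ. With all libraries, 0 of the 28 were called by edgeR (1.20% of all genes were) and 0 by limma-voom (0.617% of all genes), while DESeq2 called 7 (4.29% of all genes), with Fdps, Hmgcs1, Msmo1, Pmvk, Rdh11 and Sc5d higher and Lpl lower. At an unadjusted p below 0.05, edgeR found 18 higher and 2 lower, where 16.7% of all genes passed in either direction. The median log2 difference of the members was 1.06, against -0.00 over all tested genes, and it was 0.43 without KO_CCL4 25. Hmgcs1 had a log2 difference of 1.77 (SE 0.46, adjusted p = 0.082, edgeR), Insig1 one of 1.69 (SE 0.47, adjusted p = 0.10, edgeR) and Srebf2 one of 0.21 (SE 0.17). The authors' deposited table had 9 members higher (1.05% of all genes), namely Hmgcs1, Pmvk, Idi1, Fdps, Msmo1, Nsdhl, Sc5d, Insig1 and Rdh11.

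These same genes set KO_CCL4 15 apart, so calls and p-values without it, here and elsewhere, are no independent test. Without KO_CCL4 15, edgeR called 17 of the 28. These were 16 higher (1.14% of all genes were) and Mylip lower (1.01% of all genes were), and the median log2 difference was 1.43. Insig1 then had a log2 fold change of 2.14 (standard error 0.23, adjusted p = 0.0013, edgeR) and Fdps one of 2.65 (SE 0.34, adjusted p = 0.0040, edgeR). The other 14 higher members were Acat2, Hmgcs1, Mvk, Pmvk, Mvd, Idi1, Fdft1, Lss, Cyp51, Msmo1, Nsdhl, Sc5d, Stard4 and Rdh11. With KO_CCL4 15 as the only knockout library after CCl4, 0 of the 28 were called and the median was -0.18. Without WT_CCL4 5, 2 were called, Tm7sf2 higher and Lpl lower (3.73% of all genes).

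The same split ran through other programmes. The fasting and PPARA target genes summed to 4023 and 3148 CPM in KO_CCL4 24 and 25 and to 14798 CPM in KO_CCL4 15, which is within the range of WT_Oil. The median of the 15 fatty acid synthesis genes stood 1.01 and 1.78 above the WT_Oil mean in KO_CCL4 24 and 25 and 0.06 above it in KO_CCL4 15. After CCl4, 2 of these 15 were higher in the knockout, Fasn (the fatty acid synthase) by a log2 fold change of 2.68 and Thrsp by 3.26, with adjusted p of 0.043 and 0.045 (edgeR). Each of these 2 calls was lost in 13 of the 20 alternatives, among them limma-voom, the fit of the CCl4 libraries alone and the omission of any single library other than WT_Oil 1 and KO_CCL4 15. The log2 difference of Fasn was 1.72 without KO_CCL4 25 and 0.56 with KO_CCL4 15 as the only knockout library after CCl4. Fasn had 970, 2364 and 272 CPM in KO_CCL4 24, 25 and 15. Within KO_CCL4 the letter in the sample titles, the fasting genes and the sterol genes separated the same libraries, and their effects cannot be told apart.

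**Figure D4:**
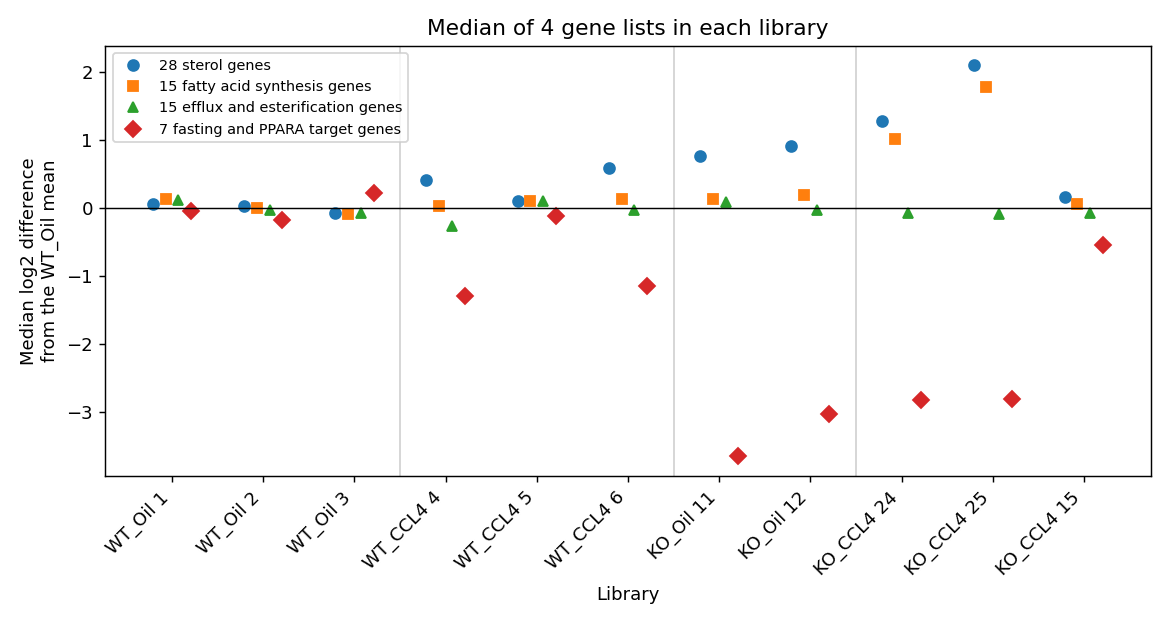
Symbols are the median log2 difference from the WT_Oil mean of 4 gene lists in each library. The sterol genes reach 2.10 in KO_CCL4 25 and 0.16 in KO_CCL4 15, the fasting genes lie at -2.82 in both KO_CCL4 24 and 25 and at -0.55 in KO_CCL4 15, and the efflux list runs from -0.26 to 0.12.

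CCl4 against oil in wild-type liver gave 1 call among the 28, in Lpl, where 6.98% of all genes were higher. Lpl (ENSMUSG00000015568, chr8:68880490-68907448) encodes the enzyme that frees fatty acids from circulating lipoproteins and is little expressed by healthy adult hepatocytes. It had 25.1, 25.2 and 16.1 CPM in WT_Oil and 126, 60.2 and 135 CPM in WT_CCL4. The groups did not overlap, and the log2 fold change was 2.28 (SE 0.34, adjusted p = 0.0023, edgeR). In the knockout it had 11.2 and 15.2 CPM after oil and 41.4, 69.3 and 32.3 CPM after CCl4, again without overlap, with a log2 difference of 1.85 (SE 0.41, adjusted p = 0.064, edgeR).

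Macrophage markers moved with Lpl in wild type. Of 7 markers, 4 rose after CCl4, Cd68, Gpnmb, Lgals3 and Trem2, with log2 fold changes from 1.82 to 5.51. The 7 summed to 225 to 324 CPM in WT_Oil and to 682, 427 and 759 CPM in WT_CCL4, and WT_CCL4 5 was lowest in this sum as in Lpl. In KO_CCL4 they summed to 254, 377 and 241 CPM. Of 6 adipose markers only Fabp4 and Cfd were tested, and Fabp4 rose by a log2 fold change of 1.69 while Cfd fell. Of 5 stellate cell markers 4 rose in wild type, and the 5 summed to 383 to 419 CPM in WT_Oil and to 1051, 661 and 1191 CPM in WT_CCL4. In the knockout, where 0 of the 5 were called, they summed to 470 and 440 CPM after oil and to 630, 668 and 598 CPM after CCl4, above every oil library as Lpl was. All 5 cell cycle markers rose in wild type, from sums of 5.79 to 9.16 CPM to 146, 30.4 and 119 CPM. The part of these cells in the Lpl difference was not tested. Of the efflux and esterification genes Abcg1, a cholesterol exporter, and Soat1, which esterifies cholesterol, also rose in wild type, by log2 fold changes of 0.96 and 1.62 (adjusted p of 0.029 and 0.0015, edgeR). The call of Abcg1 was lost without WT_Oil 2, WT_Oil 3, WT_CCL4 4 or WT_CCL4 6. Soat1 was lower in the knockout after CCl4, with a log2 fold change of -1.20 (adjusted p = 0.025, edgeR). It missed the threshold on omission of WT_CCL4 4, WT_CCL4 6 or KO_CCL4 24.

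The other 27 members were not called in wild type, and the median over the 28 was 0.45, against -0.02 over all tested genes. Sqle had 8.97 to 12.6 CPM after oil and 35.2, 14.05 and 38.1 CPM after CCl4, a log2 difference of 1.55 (SE 0.62, adjusted p = 0.15, edgeR) without overlap. Insig2 had 201, 363 and 245 CPM after CCl4, all below the 421 to 606 CPM after oil, with a log2 difference of -0.87 (SE 0.45). Insig1 had 117, 101 and 128 CPM after CCl4, all above the oil libraries, with a log2 difference of 0.68 (SE 0.47). WT_CCL4 5 was the nearest of the 3 to the oil libraries for Sqle, Insig1, Insig2 and Lpl, and its fasting and PPARA genes summed to 13890.5 CPM, against 7185 and 8122 CPM in WT_CCL4 4 and 6. With KO_CCL4 15 left out of the shared fit 4 of 28 members were called in wild type, Lpl, Mvd and Sqle higher and Insig2 lower, where 10.7% of all genes were called in either direction. Leaving out WT_CCL4 5 gave 3 calls, Lpl higher and Hsd17b7 and Tm7sf2 lower, where 13.4% of all genes were called. Leaving out WT_Oil 1 gave 2, Lpl higher and Hsd17b7 lower (7.94% of all genes), and leaving out KO_CCL4 25 gave 2, Lpl and Sqle, both higher (9.05% of all genes).

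CCl4 against oil in the knockout gave 0 calls among the 28 by edgeR (0.652% of all genes) and 0 by limma-voom (0.326% of all genes), and 1 by DESeq2 (2.31% of all genes), in Lpl. At an unadjusted p below 0.05, 3 were higher and 0 lower by edgeR, where 13.0% of all genes passed. The authors' deposited table had 2 higher, Hmgcs1 and Lpl (0.937% of all genes). The median was 0.44, against 0.02 over all tested genes, and it turned with the libraries used. Without KO_CCL4 25 it was -0.11. Without KO_CCL4 15 it was 0.77 and Acat2, Hmgcs1 and Lpl were higher (1.10% of all genes). With KO_CCL4 15 as the only knockout library after CCl4 it was -0.78. Without WT_CCL4 5, Lpl was called in the knockout (1.01% of all genes).

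The test of the interaction asks whether the CCl4 response differs between genotypes. Among the 28 members Insig2 had the largest value, but it was not called with all libraries. It had 167, 122 and 567 CPM in KO_CCL4 24, 25 and 15, all above the 75.6 and 89.0 CPM of KO_Oil, whereas in wild type every CCl4 library was below every oil library. The interaction was 2.67 on the log2 scale (SE 0.70), with an unadjusted p of 0.0024 and an adjusted p of 0.15 (edgeR). The ratio of Insig1 to Insig2 in FPKM was 0.656, 0.312 and 0.586 in WT_CCL4 and 2.71, 5.73 and 0.178 in KO_CCL4, so KO_CCL4 15 had the wild-type oil ratio. No member was called for the interaction by edgeR (0.101% of all genes), DESeq2 (2.21% of all genes) or limma-voom (0.0830% of all genes). At an unadjusted p below 0.05 there were 2 of 28, Insig2 and Hsd17b7, both higher, where 13.7% of all genes passed. Without KO_CCL4 25, Insig2 was called (1.01% of all genes). Without KO_CCL4 15 its interaction was 1.67 (SE 0.37, adjusted p = 0.079, edgeR) and it was not called (0.498% of all genes). With KO_CCL4 15 alone its interaction was 3.68.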

How the data were processed

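RNA of 11 mouse liver libraries was measured. Per the labels' protocols a stranded total RNA kit was used. The design text names 5′ capped RNA instead, a conflict left unsettled. The submitters' processing notes name Bowtie and DESeq2 and the builds mm10 and GRCm38, without versions. Per the file headers the authors deposited raw counts per gene, FPKM values scaled by gene length and library total, log2 ratios, and adjusted p scores (a DESeq2 adjusted p as its negative log10, times 10), all in 1 table. Use of strand in counting is not stated. A read in overlapping genes can count for each.

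After TMM scaling, edgeR 4.0.16 under R 4.3.3 (with limma 3.58.1) tested the counts by its quasi-likelihood method. filterByExpr (minimum count 10, minimum total 15) left 16866 of 19207 genes. All 11 libraries entered 1 fit of 4 group means, with 5 contrasts. Calls are at a Benjamini-Hochberg adjusted p below 0.05 over all tested genes. The SE is the log2 fold change over the square root of F. CPM values use the TMM-adjusted library size, and an offset of 0.5 CPM was added for differences per library. The signs of the authors' log2 ratios were turned to make CCl4 or the knockout the numerator. The fit was tested on simulated data. Groups share no replicate number, and no libraries were paired.

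The members and lists were chosen with earlier results of these data known. Full values were given for called members and for Hmgcs1, Sqle, Insig1, Insig2, Srebf2 and Scap, and other genes were named only if called (up to 4 per list) or as markers. Ebp, Sc5d, Mvd, Fdps, Ggps1 and Mylip were singled out after their values were seen. Alternatives were DESeq2 1.42.0 and limma-voom as other tests, RLE and upper quartile scaling, a filter at a mean of 5 CPM or none, a table without mitochondrial and the 50 most abundant genes, a fit of the compared groups alone, and fits with libraries left out.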

Additional observations from a re-analysis of the deposited data

Results flagged for a closer look

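For Insig2 the response to CCl4 ran in opposite directions in the genotypes. All 3 CCl4 libraries lay below every oil library in wild type and above every oil library in the knockout. The difference of the responses was 2.67 on the log2 scale (SE 0.70), and its adjusted p was 0.15 by edgeR's quasi-likelihood test, so it did not pass the correction. KO_CCL4 15, at 567 CPM, was far above KO_CCL4 24 and 25, at 167 and 122 CPM. Without KO_CCL4 15 the difference of the responses was 1.67 (SE 0.37, adjusted p = 0.079, edgeR).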

How the results depend on the processing

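No paired analysis was possible because the groups compared share no replicate number. None of the 6 calls of members turned direction in any alternative, and the call of Lpl in wild type held in all of them. The other 5, all after oil, were lost in at least 1. Of 20 alternatives, the call of Stard4 was lost in 10, those of Idi1 and Insig1 in 9 each, and those of Msmo1 and Insig2 in 3 each. All 5 were lost without WT_Oil 3, KO_Oil 11 or KO_Oil 12. Shares of all tested genes called are given in brackets. In wild type, CCl4 against oil gave 1 call of 28 (6.98% higher), and 3 with only the groups compared (8.46%). Leaving out single libraries gave 1 to 4 (shares of 2.81% to 13.4%). In the knockout it gave 0 (0.652%), with 1 by DESeq2 (2.31%) and 0 to 3 on leaving out single libraries (shares of 0.214% to 2.22%). Knockout against wild type after oil gave 5, with 3 at a mean of at least 5 CPM, 2 by limma-voom, 15 with only the oil libraries, 18 without both E libraries and 0 to 13 on leaving out single libraries. After CCl4 it gave 0 (1.20%), with 7 by DESeq2 (4.29%) and 0 to 17 on leaving out single libraries (shares of 0.0832% to 3.73%). The interaction gave 0, with 8 without both E libraries (Insig2 higher, and Acat2, Fdps, Insig1, Msmo1, Mvd, Nsdhl and Sqle lower) and 0 to 1 on leaving out single libraries. Fits without single KO_Oil libraries, or without both KO_CCL4 libraries numbered with E, left 1 library in a group, whose variation was taken from the other groups. The counts of calls by contrast in this section leave these fits out, while the tallies of lost calls include them. Without both libraries numbered with E, the median of the members was -0.78 for CCl4 in the knockout and -1.09 for the interaction. Of the 11 calls of genes outside the 28 that were followed through the alternatives, 10 were lost in at least 1. There were only 2 knockout libraries after oil, and 1 of the 3 after CCl4 stood apart. Depth was not varied.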
